A study of Mus musculus with 8 samples.

Results

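RNA of regulatory CD4+ T cells (Tregs) and conventional CD4+ T cells (Tconvs) was examined for 10 genes that encode chains of the receptors for IL-6, IL-27, IL-12, IL-10, interferon gamma and type I interferon. The members, Il6ra, Il6st, Il27ra, Il12rb1, Il12rb2, Il10ra, Ifngr1, Ifngr2, Ifnar1 and Ifnar2, were taken by their symbol from the 52636 rows of the expression table, and each symbol matched 1 row. The study asked what constant triggering of CD27, a costimulatory receptor of the TNF receptor family, does to both subsets in mice that had received no deliberate antigen. The 4 groups held 2 libraries each: Tconvs and Tregs from CD27+/- control mice, and Tconvs and Tregs from CD11c-Cd70tg;CD27+/- mice (CD70Tg), in which the CD11c promoter, active in dendritic cells, drives CD70, the ligand of CD27. The GEO labels call the control genotype WT and the table's headers call it KO, whereas the methods describe CD27+/- controls. Cd27 itself stood between 2980 and 6123 in the 8 libraries. All mice carried 1 functional Cd27 allele and the Foxp3eGFP reporter, were 6 to 8 weeks old, and no agent was given. Before sorting, antibodies and magnetic beads were used to remove B cells, macrophages, dendritic cells, NK cells, granulocytes, CD8+ cells and red blood cells, with a CD25 antibody added for the Tconv preparations only. From the remaining spleen cells, stained for CD3 and CD4, GFP+ cells (Tregs) and GFP- cells (Tconvs) were sorted, 200000 cells at a time. The CD70Tg strain develops spontaneous disease shortly after this age, so effects of the transgene and of early disease cannot be told apart here.

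Receptors of this kind have no kinase of their own. IL-6 binds the IL-6 receptor alpha chain (Il6ra), and the complex recruits gp130 (Il6st), which signals mainly through STAT3. IL-27 uses gp130 together with Il27ra and also activates STAT3. IL-12 uses Il12rb1, which it shares with IL-23, and Il12rb2, the chain that recruits STAT4 and whose presence makes a T cell responsive to IL-12. IL-10 binds Il10ra, pairs it with the widely expressed Il10rb and signals through STAT3. Interferon gamma binds Ifngr1 and joins it to Ifngr2, and in T cells Ifngr2 is known to limit the response. Type I interferons use Ifnar1 and Ifnar2. In CD4+ T cells IL-12 and interferon gamma favour the type 1 (Th1) programme, whereas IL-6 opposes the generation of Tregs and favours Th17 and follicular helper differentiation.

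The promoters of the members that moved in the same direction in both subsets are shown first, with that of Il12rb2, because it held a match to the STAT binding motif. RefSeq's promoter table (GRCm38.p6) had an entry for 7 of the 10 members, and none for Il12rb1, Il27ra and Il10ra. Each line gives the 250 bases upstream of the start site, 5′ to 3′ on the strand of the gene, and capitals mark matches to the motif. The gamma-activated sequence TTCNNNGAA, which reads the same on both strands, had 1 match in the promoter of Il12rb2, starting at -123 from the start site, and 1 in that of Ifnar2, at -214. It occurred in 7.02% of the 32851 promoters in the table cut to the same length. No match lay in the windows of Il6ra, Il6st, Ifngr1, Ifngr2 or Ifnar1. These are matches of letters and not measured sites.
Il6ra promoter, chr3:89913197-89913446, minus strand: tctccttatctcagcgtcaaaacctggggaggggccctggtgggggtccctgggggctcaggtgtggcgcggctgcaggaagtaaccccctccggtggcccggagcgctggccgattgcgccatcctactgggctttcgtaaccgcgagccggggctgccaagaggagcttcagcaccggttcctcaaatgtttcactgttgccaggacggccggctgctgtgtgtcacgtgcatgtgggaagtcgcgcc
Il6st promoter, chr13:112463820-112464069, plus strand: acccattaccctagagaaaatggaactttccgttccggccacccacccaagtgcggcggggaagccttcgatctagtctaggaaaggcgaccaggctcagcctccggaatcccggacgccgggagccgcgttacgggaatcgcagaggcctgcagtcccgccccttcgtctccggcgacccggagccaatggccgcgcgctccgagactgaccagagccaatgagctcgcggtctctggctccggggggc
Ifngr1 promoter, chr10:19591699-19591948, plus strand: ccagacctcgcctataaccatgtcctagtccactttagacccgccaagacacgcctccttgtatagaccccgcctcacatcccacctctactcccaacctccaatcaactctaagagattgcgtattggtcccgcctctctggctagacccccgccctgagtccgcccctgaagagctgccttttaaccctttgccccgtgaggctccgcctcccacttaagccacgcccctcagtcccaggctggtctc
Il12rb2 promoter, chr6:67376189-67376438, minus strand: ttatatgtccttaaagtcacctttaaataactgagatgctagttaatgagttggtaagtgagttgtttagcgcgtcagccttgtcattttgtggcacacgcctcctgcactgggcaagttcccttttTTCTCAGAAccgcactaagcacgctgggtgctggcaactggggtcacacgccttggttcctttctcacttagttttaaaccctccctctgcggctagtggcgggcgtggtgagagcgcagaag

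Ifnar2, Ifnar1 and Ifngr2 lie side by side on chromosome 16 in the same orientation, with Il10rb between Ifnar2 and Ifnar1, and the 4 genes fit in 192841 bases. The other members are on chromosomes 3, 6, 8, 9, 10 and 13. Exons of Il12rb2 overlap those of Serbp1, a gene on the other strand with values of 8328 to 12141 in these libraries, over 40% of their length. Whether the counting used strand is not given in the sources used here, so the part of the Il12rb2 signal that came from Serbp1 was not tested. Smaller overlaps were found for Ifnar2 with the readthrough gene Gm21970 (9.46% of exon length), for Il6ra with Gm42809 on the other strand (2.8%) and for Il27ra with Palm3 (0.0572%). Il6ra and Gm42809 both fell in Tregs, Gm42809 by 1.03 on the log2 scale (standard error 0.23, adjusted p = 0.011).

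The deposited values are read counts that the authors scaled to 20 M per library and rounded to whole numbers. They are used below as "scaled values", and the word level stands for them. The size of 1 read, estimated from the spacing of low values, placed 6.94 to 33.28 M reads on genes in the Tconv libraries and 1.91 to 4.57 M in the Treg libraries, and CD70Tg Treg library 1 was the shallowest. The sorts carried their labels: Foxp3 was 1039 to 1497 in Tconvs and 19769 to 21367 in Tregs, and Cd3e was 11384 to 15160 in all libraries. Markers of other cells, which the bead depletion and the sort were meant to remove, differed between genotypes. In Tregs the sum of 9 macrophage and dendritic cell markers was 3144 to 3811 in controls and 5490 to 5583 in CD70Tg, led by H2-Aa and H2-Ab1, whereas Csf1r, a defining receptor of macrophages, was lower in CD70Tg (762 to 930) than in controls (1205 to 1500). The 4 granulocyte markers summed to 10 to 32 and to 203 to 243 in the same groups, with Ly6g at 0 in 3 of the 4 Treg libraries. Also in Tregs, the 4 red blood cell markers summed to 541 to 1486 in controls and 2329 to 3919 in CD70Tg, the 2 CD8 markers to 317 to 417 and 631 to 660, and the 5 B cell markers to 254 to 379 and 426 to 473, while the 4 NK markers went from 215 to 282 down to 136 to 196. The 5 Treg markers summed to 69605 to 70773 in control Tregs and 62848 to 63687 in CD70Tg Tregs. In Tconvs the 4 NK markers summed to 495 to 555 in controls and 113 to 157 in CD70Tg, with Ncr1 at 0 in both controls, the 2 CD8 markers to 681 to 720 and 1563 to 1590, and the 5 B cell markers to 151 to 176 and 61 to 89. Of the CD8 markers, Cd8a moved most: it was 17 and 28 in control Tconvs and 508 and 608 in CD70Tg Tconvs. In Tregs Cd8a was 25 and 71 in controls and 262 and 223 in CD70Tg. Cd8b1 was 703 and 653 in control Tconvs and 1055 and 982 in CD70Tg Tconvs, and 292 and 346 against 398 and 408 in Tregs. The part of all these other cell types in the results below was not tested, and in bulk RNA fewer cells of a type and less RNA per cell cannot be told apart. The labels do not say that libraries came from separate mice, so p-values measure only the spread between these libraries, which are numbered in table order.

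All 10 members reached the minimum value of 60 in at least 2 libraries. A member is said to have risen or fallen where limma, fitted to log2(value + 5) of 12798 genes, gave a Benjamini-Hochberg adjusted p under 0.05. In CD70Tg Tregs 1 member rose (Ifngr1) and 2 fell (Il6ra and Il6st), against 3.94% and 3.46% of all genes tested. The number that rose in Tregs was 4, with Il12rb1, Il12rb2 and Il10ra added, when any 1 Tconv library was left out or only the Treg libraries were fitted, and 3 under median-of-ratios or upper-quartile factors. In CD70Tg Tconvs 3 rose (Il12rb1, Il10ra and Ifngr1) and 3 fell (Il6ra, Il6st and Ifngr2), against 6.82% and 1.98% of all genes. With the further condition of an absolute log2 fold change over 1, 2 members were called in Tregs (Il6ra and Ifngr1) and 3 in Tconvs (Il12rb1, Il10ra and Ifngr1), where 3.6% and 4.64% of all genes were called. The median absolute log2 fold change of the 10 members was 0.56 in Tregs and 0.61 in Tconvs, against 0.21 and 0.18 over all genes. Il6ra was close to that limit in Tregs, and only Ifngr1 was called there without control Treg library 1 or without CD70Tg Treg library 2. With no minimum value, or without the variance trend, the falls of Il6ra, Il6st and Ifngr2 in Tconvs and of Il6st in Tregs did not pass. In the main fit Il27ra, Il12rb2, Ifnar1 and Ifnar2 passed in neither subset.

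**Figure D1:**
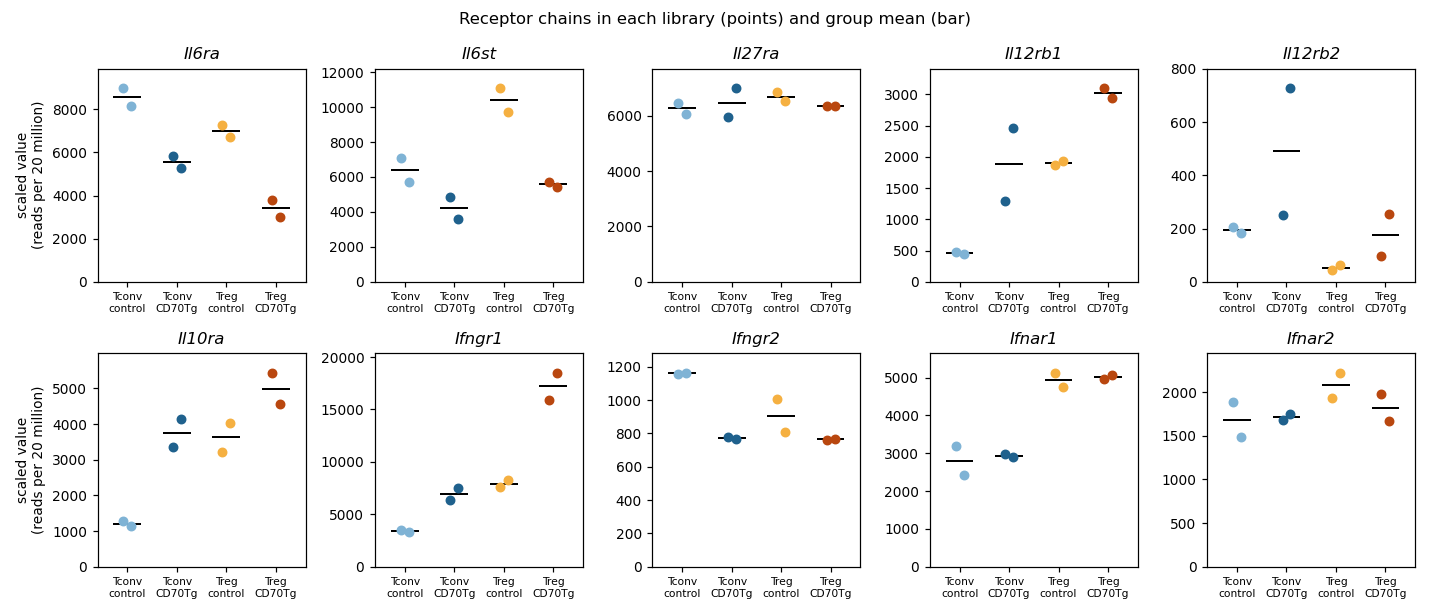
Scaled value (reads per 20 M) of each receptor chain in the 8 libraries, with 1 panel per gene and axes that start at 0. Points are libraries and bars are the means of 2 libraries. Il6ra and Il6st are lower in CD70Tg than in control libraries of both subsets, and Ifngr1 is higher in both, with no overlap.

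Il6ra, the chain that gives a T cell its binding site for IL-6, fell in both subsets. Il6ra (ENSMUSG00000027947, chromosome 3, 89864059 to 89913196, minus strand, GRCm38) had values of 8994 and 8145 in control Tconvs, 5835 and 5282 in CD70Tg Tconvs, 7298 and 6739 in control Tregs, and 3793 and 3024 in CD70Tg Tregs. The control and CD70Tg libraries did not overlap in either subset, and CD70Tg Tregs were lowest of the 4 groups. Its level was 2.07-fold lower in Tregs (log2 fold change -1.05, standard error 0.13, adjusted p = 7.2e-05). In Tconvs it was 1.54-fold lower (log2 fold change -0.62, standard error 0.13, adjusted p = 0.0035). The fall was 0.42 larger on the log2 scale in Tregs than in Tconvs, which did not pass (95% interval of the difference -0.80 to -0.05, adjusted p = 0.39).

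Il6st, gp130, the signalling chain shared by IL-6, IL-27 and several other cytokines, fell along with it. Il6st (ENSMUSG00000021756, chromosome 13, 112464070 to 112510086, plus strand) had values of 7110 and 5705 in control Tconvs and 4872 and 3601 in CD70Tg Tconvs, and of 11098 and 9742 in control Tregs and 5737 and 5448 in CD70Tg Tregs. Control Tregs were the highest group, and of the 2 CD70Tg Treg libraries 1 lay just above and 1 below the lower control Tconv library. The log2 fold change was -0.89 in Tregs (standard error 0.15, adjusted p = 0.0011) and -0.60 in Tconvs (standard error 0.15, adjusted p = 0.013). The Tconv result rests on few libraries: without control Tconv library 1 or without CD70Tg Tconv library 2 it did not pass, with the log2 fold change between -0.82 and -0.39 over the alternatives tried. Il27ra (ENSMUSG00000005465, chromosome 8, 84030294 to 84042589, minus strand), the partner of gp130 for IL-27, did not follow. Its values were 6481 and 6073 in control Tconvs, 5947 and 7009 in CD70Tg Tconvs, 6866 and 6520 in control Tregs, and 6364 and 6373 in CD70Tg Tregs, a narrow range in which the Tconv groups overlapped. The 95% intervals of its log2 fold change, -0.31 to 0.17 in Tregs and -0.20 to 0.28 in Tconvs, did not reach the changes of Il6ra and Il6st in the same subset.

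Il12rb1 and Il10ra rose steeply in Tconvs, to values around those of control Tregs. Il12rb1 (ENSMUSG00000000791, chromosome 8, 70808449 to 70821424, plus strand), the chain shared by the receptors of IL-12 and IL-23, had values of 483 and 448 in control Tconvs and 1300 and 2465 in CD70Tg Tconvs, against 1869 and 1940 in control Tregs and 3104 and 2937 in CD70Tg Tregs. Every CD70Tg library was above the controls of its subset, and CD70Tg Tconv library 2 was well above library 1. The log2 fold change was 1.93 in Tconvs (standard error 0.20, adjusted p = 6.1e-06), a 3.82-fold rise. In Tregs it was 0.66 (standard error 0.20, adjusted p = 0.056), just short of the threshold, and it passed in 8 of the 18 alternatives tried. Il10ra (ENSMUSG00000032089, chromosome 9, 45253837 to 45269149, minus strand), the ligand-binding chain for IL-10, had values of 1278 and 1133 in control Tconvs, 3369 and 4140 in CD70Tg Tconvs, 3227 and 4029 in control Tregs, and 5434 and 4551 in CD70Tg Tregs. The genotypes did not overlap in either subset, and the range of CD70Tg Tconvs overlapped that of control Tregs. It rose 3.09-fold in Tconvs (log2 fold change 1.63, standard error 0.14, adjusted p = 8.4e-07), while in Tregs the log2 fold change was 0.46 (standard error 0.14, adjusted p = 0.059), which passed in 7 of the 18 alternatives.

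For these 2 genes the response itself differed between the subsets. The Treg response minus the Tconv response was -1.17 for Il10ra (standard error 0.20, adjusted p = 0.0077) and -1.27 for Il12rb1 (standard error 0.29, adjusted p = 0.041), and over all genes 1.02% passed this test, 0.875% with an absolute difference over 1. The Il10ra difference did not pass without control Treg library 2 (-1.01) or without CD70Tg Treg library 2 (-1.04). With no minimum value or no variance trend it did not pass either, at -1.17 in both, where no tested gene passed. The Il12rb1 difference did not pass in 12 of the 17 alternatives, among them the removal of any 1 of the 4 Treg libraries, of control Tconv library 2 or of CD70Tg Tconv library 2. Its estimate lay between -1.73 and -0.81 over the alternatives. None of the other 8 members passed the test of the difference in limma, where 3 of all 10 had an unadjusted p under 0.05, and limma-voom passed 1 of the 10.

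Il12rb2 (ENSMUSG00000018341, chromosome 6, 67291318 to 67376188, minus strand), the chain that couples the IL-12 receptor to STAT4, was the lowest member and the least certain. Its values were 207 and 185 in control Tconvs, 251 and 728 in CD70Tg Tconvs, 44 and 62 in control Tregs, and 95 and 256 in CD70Tg Tregs. The CD70Tg libraries were above the controls in both subsets, but the 2 libraries of each CD70Tg group differed more from each other than the lower one did from its controls. The Treg values correspond to about 9 and 14 reads in controls and 9 and 47 reads in CD70Tg, so that the equal read numbers of control library 1 and CD70Tg library 1 differ only through the scaling for depth. The log2 fold change was 1.5 in Tregs (standard error 0.45, adjusted p = 0.052, 95% interval 0.55 to 2.44) and 1.11 in Tconvs (standard error 0.45, adjusted p = 0.16, 95% interval 0.17 to 2.05). Over the 18 alternatives tried the Treg estimate lay between 0.80 and 2.19, passing in 6, and the Tconv estimate between 0.35 and 1.87, passing in 2 (limma-voom and without CD70Tg Tconv library 1).

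Ifngr1, the ligand-binding chain for interferon gamma, rose in both subsets. Ifngr1 (ENSMUSG00000020009, chromosome 10, 19591949 to 19610229, plus strand) had values of 3455 and 3275 in control Tconvs and 6391 and 7528 in CD70Tg Tconvs, and of 7585 and 8245 in control Tregs and 15913 and 18492 in CD70Tg Tregs. Each CD70Tg library was above every control library of its subset, and the CD70Tg Tconvs came close to the control Tregs. The rise was 2.17-fold in Tregs (log2 fold change 1.12, standard error 0.12, adjusted p = 4.2e-05) and 2.06-fold in Tconvs (log2 fold change 1.04, standard error 0.12, adjusted p = 2.1e-05). The difference between the responses was 0.07 with a 95% interval of -0.29 to 0.44 (adjusted p = 0.93). Ifngr2 (ENSMUSG00000022965, chromosome 16, 91547072 to 91565623, plus strand), the second chain of the same receptor, went the other way. Its values were 1159 and 1164 in control Tconvs and 776 and 764 in CD70Tg Tconvs, and it fell there by 0.59 on the log2 scale (standard error 0.15, adjusted p = 0.016). In Tregs the values were 1005 and 806 in controls and 763 and 767 in CD70Tg, also without overlap, with a log2 fold change of -0.23 (95% interval -0.54 to 0.08, adjusted p = 0.39). The Tconv fall did not pass without either control Tconv library and without CD70Tg Tconv library 2.

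The type I interferon receptor showed no change that passed. Ifnar1 (ENSMUSG00000022967, chromosome 16, 91485238 to 91507441, plus strand) had values of 3185 and 2419 in control Tconvs, 2985 and 2892 in CD70Tg Tconvs, 5125 and 4742 in control Tregs, and 4963 and 5073 in CD70Tg Tregs. The genotypes overlapped in both subsets, while every Treg library was above every Tconv library. The 95% interval of its log2 fold change was -0.25 to 0.30 in Tregs and -0.19 to 0.35 in Tconvs. Ifnar2 (ENSMUSG00000022971, chromosome 16, 91372783 to 91405589, plus strand) had values of 1883 and 1482 in control Tconvs, 1677 and 1750 in CD70Tg Tconvs, 1932 and 2220 in control Tregs, and 1975 and 1670 in CD70Tg Tregs. Its groups overlapped as well, with intervals of -0.49 to 0.11 in Tregs and -0.26 to 0.33 in Tconvs. Il10rb, which lies between these genes on chromosome 16 and completes the IL-10 receptor, was 1284 and 1187 in control Tconvs, 1234 and 1521 in CD70Tg Tconvs, 2271 and 2098 in control Tregs, and 2310 and 2164 in CD70Tg Tregs, and it passed in neither subset (adjusted p = 0.62 in Tconvs and 0.91 in Tregs).

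**Figure D2:**
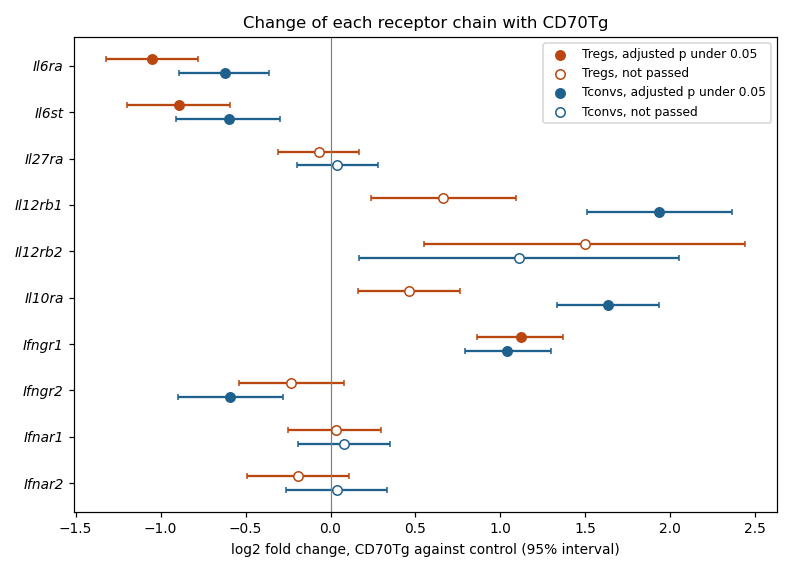
Log2 fold change of each receptor chain, CD70Tg against control, in Tregs and in Tconvs. Points are limma estimates, bars are 95% intervals, and filled points had an adjusted p under 0.05. Il6ra and Il6st lie left of 0 and Ifngr1 right of 0 in both subsets, and the Il12rb1 and Il10ra estimates are larger in Tconvs than in Tregs.

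Ratios of paired chains within a library do not depend on how that library was scaled. The ratio of Ifngr1 to Ifngr2 was 2.98 and 2.81 in control Tconvs and 8.24 and 9.85 in CD70Tg Tconvs, and 7.55 and 10.2 in control Tregs and 20.9 and 24.1 in CD70Tg Tregs. It therefore moved further than either chain alone, with no overlap between genotypes. Il10ra to Il10rb went from 0.995 and 0.955 to 2.73 and 2.72 in Tconvs and from 1.42 and 1.92 to 2.35 and 2.10 in Tregs. The ratio of Il27ra to Il6st, the chains of the IL-27 receptor, went from 0.988 ± 0.108 to 1.58 ± 0.513 in Tconvs and from 0.644 ± 0.0358 to 1.14 ± 0.0428 in Tregs (SD, n = 2), again without overlap. Il6ra to Il6st, by contrast, overlapped between genotypes in both subsets, at 1.35 ± 0.115 and 1.33 ± 0.19 in Tconvs and 0.675 ± 0.0241 and 0.608 ± 0.075 in Tregs. Il12rb2 to Il12rb1 was lower in CD70Tg Tconvs (0.244 ± 0.0723) than in controls (0.421 ± 0.011), and in Tregs it was 0.0278 ± 0.00595 in controls and 0.0589 ± 0.04 in CD70Tg, with overlap. Ifnar1 to Ifnar2 overlapped between genotypes in both subsets. With 2 libraries a group these ratios were described without a test.

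**Figure D3:**
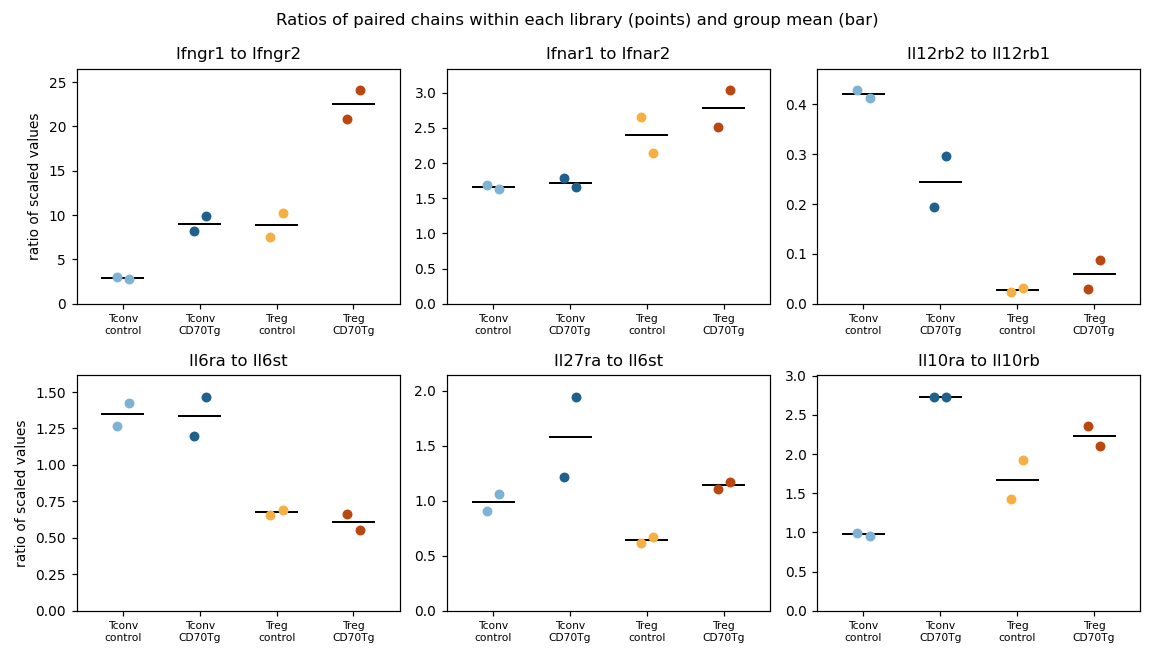
Ratio of the scaled values of paired receptor chains within each library, with 1 panel per pair and axes that start at 0. Points are libraries and bars are means of 2 libraries. The Ifngr1 to Ifngr2 ratio separates the genotypes in both subsets, whereas the Il6ra to Il6st ratio separates Tconvs from Tregs but not the genotypes.

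The subsets also differed without the transgene. In control mice 5 members were higher in Tregs than in Tconvs and 1 was lower, against 27.5% and 18.4% of all genes, so that differences between the subsets were common throughout. Il12rb1 was 4.06-fold higher in control Tregs (log2 fold change 2.02, standard error 0.20, adjusted p = 7.5e-07), Il10ra 2.99-fold (adjusted p = 2.3e-07) and Ifngr1 2.35-fold (adjusted p = 6.7e-07). Ifnar1 and Il6st were 1.77-fold and 1.63-fold higher (adjusted p = 7.1e-05 and 9.1e-04). Il12rb2 was 3.50-fold lower in Tregs (adjusted p = 0.0036), from few reads, and the call was lost in limma-voom on read numbers (adjusted p = 0.090) and with no minimum value (adjusted p = 0.070). Ifngr2 (log2 fold change -0.37, adjusted p = 0.051) passed as lower in control Tregs in 7 of 18 alternatives and Il6ra (-0.29, adjusted p = 0.073) in 3, so that 3 members were lower under median-of-ratios factors or with only the libraries compared, and 2 without control Treg library 1 or without either CD70Tg Tconv library. In CD70Tg mice 5 members were higher in Tregs and 2 lower, against 22.6% and 20.1% of all genes. Ifngr1 was 2.47-fold higher in CD70Tg Tregs (adjusted p = 4.8e-07), Ifnar1 1.71-fold, Il12rb1 1.68-fold, and Il6st and Il10ra 1.33-fold each, while Il6ra was 1.64-fold lower (adjusted p = 3.1e-04) and Il12rb2 2.68-fold lower (adjusted p = 0.017). These contrasts use the same libraries as those between genotypes and are given only as their own values. With the condition of an absolute log2 fold change over 1, 4 members were called in controls and 2 in CD70Tg mice, against 19.2% and 17.2% of all genes. Il6st, Il12rb1, Il10ra and Il12rb2 each did not pass in CD70Tg mice without CD70Tg Treg library 1, which left 2 members higher and 1 lower, and likewise with no minimum value or no variance trend. Without CD70Tg Tconv library 1 the log2 fold changes of Il12rb1 and Il10ra were 0.29 and 0.26, and without CD70Tg Tconv library 2 those of Il6st and Il12rb2 were 0.20 and -0.66, none of which passed. Il12rb2 and Il10ra did not pass in limma-voom either, nor Il6st under median-of-ratios factors or without CD70Tg Treg library 2.

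Levels were ordered after division by exon length. In control Tconvs Il27ra was highest, at 1796 ± 82.5 per kb (SD, n = 2), followed by Ifngr1 at 1182 ± 44.7 and Il6ra at 992 ± 69.5, whose libraries did not overlap with those of the neighbour above. Il6st, Ifnar2 and Ifnar1 followed with overlapping libraries at 577 ± 89.5, 505 ± 85.2 and 472 ± 91.2, then Il10ra at 345 ± 29.3, Ifngr2 at 308 ± 0.939, Il12rb1 at 113 ± 6.03 and Il12rb2 at 51.7 ± 4.10. In the other 3 groups Ifngr1 came first, then Il27ra and then Il10ra, but in control Tregs the libraries of Il10ra and Il6st overlapped. Divided by the longest transcript instead, Ifnar1 and Il6st stood above Il10ra in control Tregs. Ifngr1 per kb was 2445 ± 282 in CD70Tg Tconvs, 2780 ± 164 in control Tregs and 6042 ± 641 in CD70Tg Tregs, where the level of the next member, Il27ra, was 1822 ± 1.82. Il6ra and Il6st, at 812 ± 45.7 and 939 ± 86.4 per kb in control Tregs, stood at 394 ± 62.9 and 504 ± 18.4 in CD70Tg Tregs, below Il12rb1 at 736 ± 28.8. Ifngr2 and Il12rb2 took the last places in 3 of the 4 groups, and Il12rb2 was last in all 4, at 14 ± 3.35 per kb in control Tregs.

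**Figure D4:**
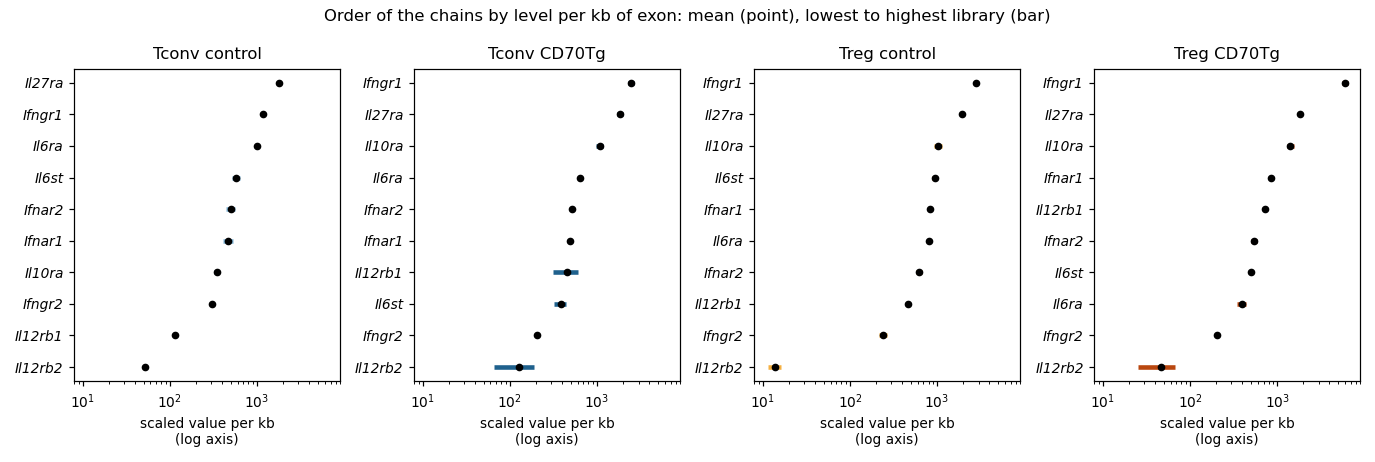
Order of the receptor chains by scaled value per kb of exon (log axis) in each group. Points are means of 2 libraries and bars run from the lower to the higher library. Ifngr1 is first in every group except control Tconvs, where Il27ra is first, and Il12rb2 is last in all.

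Most ligands of these receptors were low in the T cells themselves. Of 15 ligand genes 5 were tested, and the others, Il6, Il12a, Il12b, Ifnb1 and Il27 among them, did not reach the minimum and stayed at or below 21 in every library. Ifng, the ligand of the receptor described above, was 105 and 72 in control Tconvs and 718 and 2111 in CD70Tg Tconvs, and 64 and 71 in control Tregs and 168 and 300 in CD70Tg Tregs. It rose in both subsets, with log2 fold changes of 3.75 (standard error 0.40, adjusted p = 6.9e-06) and 1.67 (standard error 0.40, adjusted p = 0.016). Il10 rose in Tconvs, where it was 30 and 3 in controls and 340 and 629 in CD70Tg (log2 fold change 4.80 with a standard error of 0.48, adjusted p = 3.6e-06). In Tregs it was 253 and 307 in control Tregs and 512 and 691 in CD70Tg Tregs (log2 fold change 1.08, adjusted p = 0.20). Ebi3, a subunit of IL-27 and IL-35, rose in Tconvs from 15 and 11 to 44 and 131 (log2 fold change 2.19, adjusted p = 0.0020). In Tregs Ebi3 was 136 and 171 in controls and 345 and 468 in CD70Tg, without overlap, but did not pass in the main fit. Over all genes 6.82% rose in Tconvs and 3.94% in Tregs. No ligand fell. The Treg call of Ifng was lost without either control Treg library, without CD70Tg Treg library 2 and in limma-voom on estimated reads.

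Among 16 other receptor chains of the same families 5 reached the minimum value, and 1 of them, Il2rg, the common gamma chain, rose in Tregs (log2 fold change 0.46, adjusted p = 0.036), but it did not pass when any 1 of the 4 Treg libraries was left out or in limma-voom, and 3.94% of all genes rose in this contrast. In Tconvs, where 8.8% of all genes passed in limma, none passed in limma, 0 had an unadjusted p under 0.05 and 0 passed in limma-voom. From the list of 12 JAK kinases, STAT factors and IRF9 only single genes are described, and its counts are not reported here. In Tconvs Jak2, Jak3, Stat2 and Stat3 rose, with log2 fold changes of 0.39, 0.75, 0.56 and 0.47. Stat4, the factor of the IL-12 receptor, had log2 fold changes of -0.18 in the Treg contrast, with an adjusted p of 0.45, and 0.15 in the Tconv contrast, with an adjusted p of 0.61. Without CD70Tg Tconv library 2 no more than 1 of the 4 genes that rose passed, and without control Tconv library 2 no more than 2.

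Of 17 inhibitors of the pathway 4 rose in Tconvs: Socs1, Socs2, Socs3 and Cish, with log2 fold changes of 0.79, 0.74, 1.12 and 0.81, where 6.82% of all genes rose. Socs3, which binds gp130 and blocks its signal, was 2936 and 1564 in control Tconvs and 3933 and 5497 in CD70Tg Tconvs (adjusted p = 0.0029). In Tregs, where 7.4% of all genes passed in limma, none of the 17 passed in limma or limma-voom, and 3 had an unadjusted p under 0.05. The count of risen genes in Tconvs was 1 without CD70Tg Tconv library 2 and 2 without control Tconv library 2. Of the 8 genes for receptor shedding, sorting and degradation, Adam10 and Adam17, the proteases that cleave Il6ra, among them, none passed in limma in either subset, with 2 at an unadjusted p under 0.05 in each, and limma-voom passed 0 in Tregs and 1 in Tconvs. Over all genes 7.4% passed in limma in Tregs and 8.8% in Tconvs, so 0 of 8 is near that share. The log2 fold changes of the 8 genes ran from -0.64 to 0.30.

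Targets of interferon gamma rose broadly in both subsets: 24 of 30 tested genes in Tregs and 26 of 30 in Tconvs, against 3.94% and 6.82% of all genes, and none fell. The list median was 0.75 in Tregs and 1.15 in Tconvs on the log2 scale, against -0.05 and 0.01 over all genes. In Tregs the called genes with the highest fold included Serpina3g, a serine protease inhibitor (log2 fold change 2.41), the transcription factor Irf8 (1.53), and the immunity-related GTPases Iigp1 (1.37) and Tgtp1 (1.35). The count of 24 also holds the chemokine Cxcl9, which was 20 and 31 in control Tregs and 95 and 115 in CD70Tg Tregs and reached the minimum value only through the latter group, so its call is no support. In Tconvs the 5 called genes with the highest fold were Serpina3g (3.55), the guanylate-binding proteins Gbp2 (1.99) and Gbp3 (1.95), Iigp1 (1.86) and Gbp5 (1.6). Only Gbp3 passed the test of the difference, with a Treg response minus Tconv response of -1.32 on the log2 scale (adjusted p = 0.0043). With no minimum value or without the variance trend no tested gene, Gbp3 included, passed that test. Leaving out 1 library moved the counts to between 15 and 26 in Tregs and between 19 and 26 in Tconvs, with the lowest counts without control Treg library 2 and without control Tconv library 2, and limma-voom on estimated reads gave 19 and 28. Irf8 is also active in myeloid cells, which the bead depletion was meant to remove and whose summed markers were 3144 to 3811 in control Tregs and 5490 to 5583 in CD70Tg Tregs. Their part in the count was not tested.

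Of the targets of type I interferon 3 of 29 rose in Tregs (Oas1a, Oasl2 and Zbp1) and 5 of 29 in Tconvs (Ifit3, Mx1, Oasl2, Zbp1 and Stat2), where 3.94% and 6.82% of all genes rose, and none fell. The list medians were 0.23 and 0.35. The called genes were Oasl2 (1.06, adjusted p = 0.0097) and Mx1 (1.03, adjusted p = 0.041), both in Tconvs. These counts shift easily, from 0 without control Treg library 2 or CD70Tg Treg library 2 to 7 in Tregs, and from 1 without CD70Tg Tconv library 2 to 14 in Tconvs, with 1 and 11 in limma-voom. Targets of IL-6, IL-27 and IL-10 through STAT3 rose in Tconvs in 10 of 16 tested genes and fell in 1, Bcl6, the master factor of follicular helper cells (-0.83, adjusted p = 0.026), against 6.82% and 1.98% of all genes. Bcl6 did not pass without control Tconv library 1 or without either CD70Tg Tconv library. The called genes included Il10 itself, Prdm1, which encodes Blimp-1 (2.04), Rora (1.63) and Socs3 (1.12). The count of 10 also holds Ier3, which was 24 and 13 in control Tconvs and 98 and 249 in CD70Tg Tconvs and reached the minimum value only through the latter group, so its call is no support. In Tregs 3 of 16 rose, Rora (0.70), Prdm1 (0.67) and Pim1 (0.66), against 3.94% of all genes, and none fell. Prdm1 and Il10 passed the test of the difference, both with the larger response in Tconvs. Neither passed it with no minimum value or without the variance trend, where no tested gene did. The count of risen genes in Tconvs was 4 without CD70Tg Tconv library 2 and 6 without control Tconv library 2, and that in Tregs was 1 without control Treg library 1, without either CD70Tg Treg library and in limma-voom.

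Targets of IL-12 through STAT4, a list that holds Il12rb2 and Ifng as well, rose in 8 of 12 tested genes in Tregs and in 7 of 12 in Tconvs, against 3.94% and 6.82% of all genes, and none fell. In Tregs those with a high log2 fold change included Gadd45g (1.71), Ifng (1.67), the chemokine receptor Cxcr3 (1.64) and Il18rap, a chain of the IL-18 receptor (1.48). In Tconvs they included Havcr2, which encodes the inhibitory receptor TIM-3 (5.78), Ifng (3.75), Il18rap (1.79) and the protease Furin (1.29). Havcr2 was 13 and 9 in control Tconvs and 666 and 1123 in CD70Tg Tconvs, so the size of its fold change rests on low control values. Tbx21, which encodes T-bet, the Th1 master factor, was 296 and 250 in control Tregs and 607 and 735 in CD70Tg Tregs (log2 fold change 1.28, adjusted p = 0.019). In Tconvs it was 819 and 635 in controls and 848 and 2368 in CD70Tg, where library 1 was close to the higher control. The Treg count was 3 without control Treg library 1, without CD70Tg Treg library 2 and in limma-voom, and 5 without control Treg library 2. The Tconv count was 12 without CD70Tg Tconv library 1 and 11 in limma-voom. Of 12 markers of naive and memory T cells, Klrg1, a receptor of terminally differentiated effector cells, rose in both subsets (1.49 in Tregs and 3.58 in Tconvs), and Cd69, an early activation marker, fell in both (-0.56 and -0.89). Satb1 and Cd44 fell in Tregs, and Itgb1 rose and Lef1 fell in Tconvs. Over all genes 3.46% fell and 3.94% rose in Tregs, and 1.98% fell and 6.82% rose in Tconvs. The falls in Tregs were weakly held: of the 3 genes of the list that fell, the count was 0 without control Treg library 1, without CD70Tg Treg library 1 and in limma-voom, and 1 without either other Treg library. Klrg1 did not pass in Tregs without control Treg library 1. In Tconvs the count of genes that fell went from 2 to 1 without control Tconv library 1, CD70Tg Tconv library 2 or either CD70Tg Treg library, and to 5 without CD70Tg Tconv library 1 and in limma-voom.

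**Figure D5:**
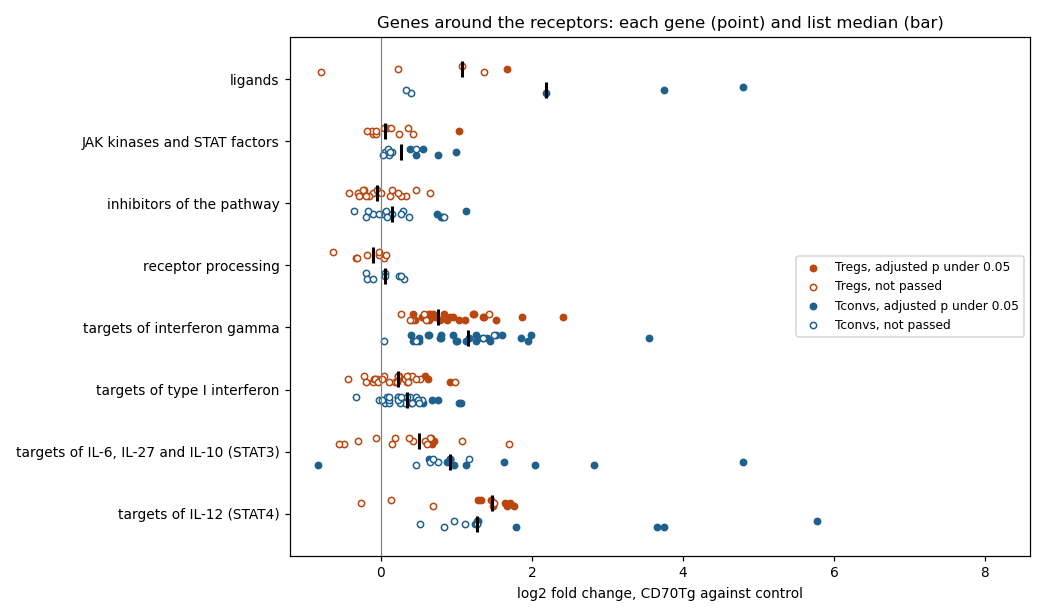
Log2 fold change, CD70Tg against control, of the tested genes in 8 lists around the receptors, in Tregs and in Tconvs. Points are genes, filled where the adjusted p was under 0.05, and black bars are list medians. The targets of interferon gamma lie to the right of 0 in both subsets, and the receptor processing genes lie around 0 with no filled point. Over all genes 7.4% passed in Tregs and 8.8% in Tconvs.

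Among the members, Il12rb2, Il12rb1 and Ifngr1 varied most over the 8 libraries. The genes with the most similar profile to Ifngr1 were Kif13b, Traf1 and Adam9 (Pearson r of log2 values 0.991, 0.990 and 0.988 over 8 libraries), and Kif13b, a kinesin, was 570 and 551 in control Tconvs and 2748 and 2697 in CD70Tg Tregs. Those closest to Il12rb1 were Rnf19b, Rora and Icam1 (0.996, 0.994 and 0.993), and Rora was 363 and 342 in control Tconvs, 908 and 1344 in CD70Tg Tconvs, 1155 and 1025 in control Tregs and 1798 and 1735 in CD70Tg Tregs. Those closest to Il12rb2 were Cmpk2, Smarcd2 and Sdhb (0.992, 0.982 and 0.980), whose own range was far smaller, as for Smarcd2 with 3615 to 4539. The correlations are descriptions over 8 libraries that share the group structure, and so genes that differ between the groups in the same order reach high values.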

How the data were processed

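RNA from the 8 sorted samples was made into libraries with the Ovation SoLo kit and sequenced paired-end. Per the methods and processing notes, the authors trimmed reads with Trimmomatic 0.36, aligned them to mm10 with STAR 2.5.3 and counted them per gene with HTSeq 0.9.1. Whether counting used strand is not given in the sources used here. The deposited table holds a score per gene and library: counts that the authors scaled to 20 M reads and rounded to whole numbers, so a count test was not used. Samples were grouped by their labels, and columns were matched to groups by subset and by TG (CD70Tg) or KO (control). 4131 rows with clone names were left out. The main test was limma 3.58.1 with a variance trend, in R 4.3.3, on log2(value + 5) of genes at 60 or more in at least 2 of the 8 libraries, with 1 coefficient per group and Benjamini-Hochberg adjustment over 12798 genes. Fold changes are on this log2 scale, which understates changes of low genes. Positions, exon lengths (the union of exons) and overlaps come from the GENCODE vM21 annotation of GRCm38 (mm10). Reads per library were estimated from the spacing of low values. Alternatives were 2 other pseudocounts, 2 other filters, 2 other scalings, no trend, limma-voom on estimated reads, only the libraries compared, other thresholds, clone rows kept and each library left out. The steps were tested on simulated data.

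The members, gene lists and tests were chosen with earlier results of these data known. All 10 members are described; from each list except that of JAK kinases and STAT factors the genes that passed were counted, and up to 5 called genes with the largest change were named, with genes that pair with a member. Where other genes outside this rule are named, they were chosen after their values were seen. Samples that only the protocols name were not analysed here. Values of 2 genes of these lists are not reported here.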

Additional observations from a re-analysis of the deposited data

Results flagged for a closer look

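Among the 10 receptor chains, 2 responded differently to CD70Tg in Tregs and Tconvs by a test of the difference itself (limma, adjusted over 12798 genes). Over all genes 1.02% passed this test, and no tested gene passed it with no minimum value or without the variance trend. The Treg response minus the Tconv response was -1.17 on the log2 scale for Il10ra (adjusted p = 0.0077) and -1.27 for Il12rb1 (adjusted p = 0.041). The difference did not pass in 4 of 17 alternatives for Il10ra and in 12 of 17 for Il12rb1, and neither passed without control Treg library 2, without CD70Tg Treg library 2, with no minimum value or without the variance trend. Both genes rose in Tconvs, and both were higher in the 2 CD70Tg Treg libraries than in the 2 control Treg libraries without passing the test there, although Il10ra passed in Tregs in 7 of 18 alternatives and Il12rb1 in 8. Markers of NK cells and CD8 T cells moved with genotype in Tconvs, and the part of such cells in these differences was not tested. Groups of 2 libraries do not allow a test for a library that stands apart.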

How the results depend on the processing

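Of 890 comparisons of a member under an alternative with its main value, 784 kept direction and side of the threshold, 51 no longer passed at an adjusted p under 0.05, 34 newly passed and 21 turned direction. The adjusted p of Ifngr1 in the 4 contrasts in which it passed, of Il6ra in Tregs and of Il12rb1 and Il10ra in Tconvs stayed under 0.05 in every alternative run, but the absolute log2 fold change fell under 1 for Il6ra in Tregs (-0.99 without control Treg library 1, -0.89 without CD70Tg Treg library 2) and for Ifngr1 in Tconvs (0.92 without CD70Tg Tconv library 2). The turns were all of values that passed no test, and most came from leaving out 1 library. Over the left-out libraries the log2 value ran, in Tregs, from -0.03 to 0.08 for Ifnar1, and in Tconvs from -0.08 to 0.16 for Il27ra, from -0.12 to 0.28 for Ifnar1 and from -0.14 to 0.21 for Ifnar2, which was 0 under both scalings. For the difference between responses it ran from -0.23 to 0.01 for Il27ra, from -0.37 to 1.14 for Il12rb2, from -0.04 to 0.19 for Ifngr1 and from -0.25 to 0.14 for Ifnar1, which was 0.02 under both scalings. Between the subsets of CD70Tg mice it ran from -0.14 to 0.10 for Il27ra, from -0.02 to 0 for Ifngr2 and from -0.04 to 0.20 for Ifnar2, with Il27ra at 0.02 and Ifngr2 at 0.03 under upper-quartile factors and Ifngr2 at 0.01 in limma-voom.

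Members called by adjusted p and fold numbered 2 in Tregs (1 to 3 when a library was left out), 3 in Tconvs (2 to 4, and 6 at any fold change), 2 in the difference between responses (0 to 2), 4 between the subsets of controls (4 to 5) and 2 between those of CD70Tg mice (1 to 2, and 7 at any fold change). For the difference, 1 was called with a pseudocount of 1, under median-of-ratios or upper-quartile factors, in limma-voom on estimated reads or at an adjusted p under 0.01, and 0 with no minimum value or no variance trend, where no tested gene passed. Between the subsets of CD70Tg mice 1 was called with no minimum value, no variance trend, limma-voom or an adjusted p under 0.01. At any fold change, a count chosen after seeing the data, 1 to 4 members were higher and 2 lower in CD70Tg Tregs, and 3 to 4 higher and 1 to 3 lower in CD70Tg Tconvs, when a library was left out. With the longest transcript as the length, 6 of 10 members kept their rank in CD70Tg Tconvs and 8 in each other group. The cause of these changes was not tested. Where a left-out library left 1 in its group, that sample was assumed to vary like the others. No paired analysis was possible because the columns carry library numbers that no sample title carries. The Treg libraries, with 1.91 to 4.57 M reads on genes, limit low members such as Il12rb2.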

Other observations

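Cd27, the receptor that binds the product of the transgene, had log2 fold changes of 0.17 in Tregs (standard error 0.11, adjusted p = 0.42) and 0.06 in Tconvs (standard error 0.11, adjusted p = 0.85). Its values were 5173 and 5543 in control Tregs, 6123 and 5894 in CD70Tg Tregs, 3239 and 2980 in control Tconvs, and 3129 and 3359 in CD70Tg Tconvs. These are RNA values and not protein. The study reports, without showing the data, that CD27 on T lymphocytes was strongly lowered after its engagement. Cd70 was at or below 44 in all libraries.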
